A study of Nannochloropsis oceanica with 44 samples.

Results

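The genes described here are 36 of those that stepped up most steeply between 12 h and 24 h after nitrogen was given back to starved cultures of the alga Nannochloropsis oceanica and that ended near their early-deprivation level. They were chosen by their measured levels from cluster 3 of the authors' 4 k-means clusters, which holds 872 of the 2489 called genes, so the members make up 4.13% of that cluster and 1.45% of all called genes. Called genes are those that passed the authors' test of deprivation against recovery. A member had a level at 24 h of resupply (NR) more than 5 above its level at 12 h NR on the log2 scale, which is more than 32-fold. Its level at 72 h NR lay within 1 (2-fold) of its level at 6 h of deprivation (N-). At 24 h N- it was at most 1 below that level, and at 72 h N- at most 1 above it.

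The study measured messenger RNA by sequencing in wild-type cultures of strain CCMP1779 kept in continuous light. For the N- groups the cells were washed and moved to F/2 medium without nitrogen, and harvests were made from 6 h to 72 h later, with 12, 24 and 48 h in between. For the NR groups the cells first spent 72 h without nitrogen, then went back into F/2 medium with nitrogen, and were harvested after the same hours. There are 44 libraries by the labels, 4 for each of 11 groups including the 0 h start, while the protocol names 2 biological replicates per time point, and the tables give 1 value per gene for each of 10 time points, with no column for 0 h.

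Nannochloropsis is a marine unicellular alga known for storing oil. When nitrogen runs out, cells of such algae stop dividing, recycle nitrogen from proteins and pigments of the chloroplast, and store carbon as triacylglycerol in lipid droplets. When nitrogen returns, they take it up, rebuild the photosynthetic apparatus, use the stored lipid and divide again. The amount of a transcript at any time reflects how fast it is made and how fast it decays, and a level in a bulk culture is an average over all its cells, so fewer cells with a transcript and less of it per cell cannot be told apart.

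Genes carry the identifiers of an automatic annotation and no gene names. An identifier that begins with maker is an evidence-based gene model, and one that begins with augustus_masked or snap_masked is a prediction by that gene finder alone. The number after nanno_ is the contig, a stretch of assembled genome. None of the 36 matched the reference table of 160 organelle genes of the related strain IMET1, so gene functions, sequences and positions were not used here. At most 2 identifiers are named in each direction for a comparison.

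With 1 value per gene and time point there is no replicate error. No difference below has a p-value, and none can be set against the variation among cultures. A gene is called higher or lower where its levels differ by more than 1 on the log2 scale. The rule used the levels at 6, 24 and 72 h N- and at 12, 24 and 72 h NR, and the clusters were formed from all 10 time points, so every profile value below describes genes chosen for it. The authors' scaling between time points is not given in the sources used here. The median level of all called genes shifted between columns, so medians and counts of members are, for most differences, also given relative to that shift, which means after centring every column on its median, with the centred count over all 2489 called genes beside them. The shift is a difference between column medians, which is not the median of the genes' own differences. From 72 h N- to 6 h NR the shift was -0.33, while the median difference of called genes was 0.18. From 12 h to 24 h NR these values were 1.76 and 0.99.

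By the rule, every member was higher at 24 h NR than at 12 h NR, as were 49.8% of all called genes. The log2 differences ran from 5.01 to 6.83 with a median of 5.28, or 38.8-fold. Relative to a shift of 1.76 the median was 3.51 and all 36 were still higher, beside 713 of the called genes. Of all called genes, 64 had a step above 5, and all 64 belong to cluster 3. The 28 of these that are not members each stood more than 1 above their 6 h N- level at 72 h NR and met the other conditions, so the end level alone separated them. The 2 members nearest to the step limit had steps of 5.006 and 5.009, and the 2 closest genes outside it, which met the other conditions, had 4.990 and 4.988. A further 89 genes met every condition but had steps above 4.5 and up to 5, and these near members are used below as the group most like the members. The limit is a line through a continuous spread of steps, as the plot of steps against end levels shows.

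**Figure D1:**
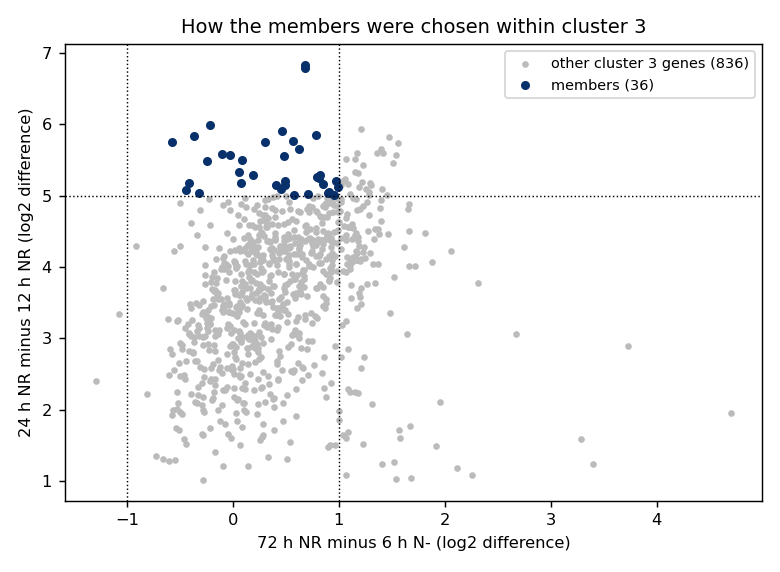
Each point is a gene of cluster 3, placed by its log2 difference between 72 h NR and 6 h N- (horizontal) and between 24 h and 12 h NR (vertical), with dotted lines at the limits of the rule. The 36 members fill the top of the strip between -1 and 1, the 28 other genes above the step limit of 5 lie to its right, and no gap separates the members from the genes below the line.

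The members shared a profile with a slow decline in deprivation, a trough at 12 h NR and a peak at 24 h NR. Their median level was 11.30 at 6 h N-, 11.96 at 12 h N-, 11.21 at 24 h N-, 10.16 at 48 h N- and 8.73 at 72 h N-. After resupply it was 8.60 at 6 h, 7.27 at 12 h, 12.77 at 24 h, 11.99 at 48 h and 11.67 at 72 h. Levels at 12 h NR ran from 4.64 to 12.34 over the members and those at 24 h NR from 9.79 to 18.00. Whether these levels were adjusted for gene length is not given in the sources used here, so they are not read as an order of transcripts. The lowest value of the 10 time points fell at 12 h NR in 34 members and at 6 h NR in 2. The highest fell at 24 h NR in 33 members and at 12 h N- in 3. Most other genes of the cluster had the same extremes, with 723 of 836 lowest at 12 h NR and 629 highest at 24 h NR, and of all 2489 called genes 908 and 708 did. With centred columns 33 members were lowest at 12 h NR and 27 highest at 24 h NR, beside 543 and 477 of the other cluster 3 genes and 608 and 504 of all called genes.

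**Figure D2:**
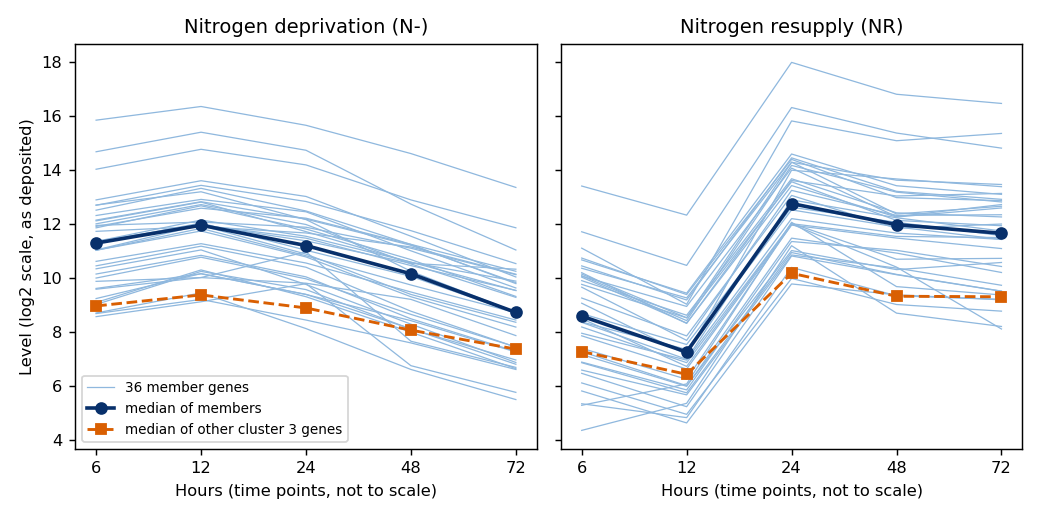
Levels on the log2 scale as deposited (vertical) at each of the 5 hours of deprivation (left) and resupply (right), with 1 thin line per member, the median of the 36 members (circles) and the median of the other 836 genes of cluster 3 (squares, dashed). Between 12 h and 24 h NR the median of the members moves from 7.27 to 12.77 and that of the other cluster genes from 6.44 to 10.18.

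In the first hours of deprivation the members were slightly higher. At 12 h N- each of the 36 was above its 6 h N- level, by 0.12 to 1.22 with a median of 0.70. So were 1835 of the 2489 called genes, 756 of the 836 other cluster 3 genes and 80 of the 89 near members. Relative to the shift of all called genes the median was 0.51, with 33 of the 36 members above, beside 1334 called genes. By the 2-fold limit 2 members were higher, beside 1.69% of all called genes, and 0 were lower, beside 1.65%. After centring it was again 2 members, beside 12 called genes. The 2 higher ones were augustus_masked-nanno_1258-abinit-gene-0.2, at 9.03 and then 10.25, and snap_masked-nanno_839-abinit-gene-0.4, at 9.10 and then 10.31. Near members had a median difference of 0.69 and the other genes of cluster 3 one of 0.56. At 24 h N- the median member was 0.73 below its 12 h N- level, with 7 members lower, beside 9.12% of all called genes. After centring this was -0.49, with 2 members and 60 called genes lower.

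The decline came later. Between 24 h and 48 h N- 26 of 36 members were lower, beside 20.8% of all called genes, 32.8% of the other cluster 3 genes and 51.7% of near members. The median difference was -1.26, which relative to the shift was -0.79 with 11 members and 168 called genes lower. Between 48 h and 72 h N- 28 members (77.8%) were lower, beside 9.92% of all called genes. So were 22.5% of the other cluster 3 genes, 55.1% of near members and 89.3% of the 28 non-members with steps above 5. The median of the members was -1.18. Centring made it -0.86, with 12 members and 42 called genes lower. At 72 h N- every member was more than 2-fold below 6 h N-, beside 43.2% of all called genes. So were 75.5% of the other cluster 3 genes, 97.8% of near members and all 28 non-members with steps above 5. The rule set no lower bound on this difference, which ran from -3.97 to -1.03 with a median of -2.52, against -2.06 in near members and -1.54 in the other cluster 3 genes. Relative to a shift of -0.84 the median was -1.68, with 30 members and 574 called genes lower.

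The 2 members with the largest steps also declined most from 6 h to 72 h N-. Over the 36 members the step and this difference had a Pearson correlation of -0.64 and a Spearman correlation of -0.56. The relation was not strict, and it was not tested. The steepest, maker-nanno_3221-augustus-gene-0.2, was at 12.71 at 6 h N-, 13.20 at 12 h, 12.17 at 24 h, 10.26 at 48 h and 8.74 at 72 h. It was then at 9.08 at 6 h NR, 7.17 at 12 h, 14.00 at 24 h, 13.68 at 48 h and 13.39 at 72 h. It had the lowest difference between 72 h and 6 h N- of all members and the smallest difference after 24 h NR, with 48 h NR only 0.32 lower. The second, maker-nanno_342-augustus-gene-0.8, was at 14.69 at 6 h N- and 15.41 at 12 h N-, and its level at 72 h N- was 11.05. It went on to 9.04 at 12 h NR, the largest difference of a member between 6 h and 12 h NR (-2.08), and stood at 15.83 at 24 h NR and 15.36 at 72 h NR. These 2 stand apart from the other members, whose steps end at 5.99.

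After 6 h with nitrogen the transcripts of most members stood near their level at the end of deprivation. The median member at 6 h NR was 0.03 above its 72 h N- level, with 19 members above and 17 below it. Of all called genes 1409 were above and 1080 below. By the 2-fold limit 0 members were higher, beside 28.8% of all called genes, and 4 were lower, beside 22.7%. Relative to a shift of -0.33 the median was 0.36, with 1 member higher and 4 lower, beside 834 and 452 called genes. The 2 lowest were maker-nanno_820-augustus-gene-0.27, from 10.34 to 8.38, and maker-nanno_4350-augustus-gene-0.12, from 7.27 to 5.35.

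Between 6 h and 12 h NR most members were lower still. In this interval 31 of 36 were lower, beside 13.8% of all called genes, 33.5% of the other cluster 3 genes and 78.7% of near members, and 1 was higher, beside 10.8% of all called genes. The median difference was -1.23, which is 2.35-fold lower, beside a median difference of -0.27 over all called genes. The shift between the column medians was -0.09, and 28 members were lower relative to it, beside 264 called genes. At 12 h NR all 36 members were below each of their own deprivation values, a count not given here for all called genes. They lay 0.36 to 2.97 under the lowest of these, with a median of 1.37. This was more than 2-fold in 27 members (75.0%), beside 25.4% of all called genes, 30.1% of the other cluster 3 genes and 33.7% of near members. With centred columns it was 16 members, beside 193 of the 2489 called genes, 66 of the 836 other cluster 3 genes and 7 of the 89 near members.

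The peak at 24 h NR passed the highest deprivation level in 33 of the 36 members, a count not given here for all called genes. It did so by more than 2-fold in 14 members (38.9%), beside 28.2% of all called genes, 36.4% of the other cluster 3 genes and 56.2% of near members, so on this count the members were close to the rest of their cluster. With centred columns it was 10 members, beside 240 of the called genes, 191 of the other cluster 3 genes and 43 of the near members. The 24 h NR level of the members lay between 0.31 below and 2.79 above the highest deprivation value, with a median of 0.75 above. Set against 6 h N- alone, 31 members (86.1%) were higher, beside 47.5% of all called genes. So were 63.3% of the other cluster 3 genes and 88.8% of near members. Near members had a median difference of 1.93 and the members one of 1.49. Relative to the shift this was 0.98, with 18 members and 739 called genes higher.

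Members differed in the side on which they passed the deprivation range by more than 2-fold. By this limit, 21 of the 36 were below the range at 12 h NR but not above it at 24 h NR. Another 8 passed it only above at 24 h NR, 6 passed it on both sides and 1 on neither. By any amount, all 36 were below it at 12 h NR and 33 were above it at 24 h NR. The step is the sum of the depth below the range, the width of the range and the excess above it, and since it had to exceed 5 the slope of the points in the plot of levels outside the deprivation range follows in part from the rule. Evidence-based models made up 7 of the 21, 2 of the 8 and 2 of the 6. The member whose peak stayed furthest below its highest deprivation level was snap_masked-nanno_839-abinit-gene-0.4, at 10.31 at 12 h N-, 4.96 at 12 h NR and 9.99 at 24 h NR. The highest excess was that of augustus_masked-nanno_613-abinit-gene-0.0, at 9.21 at 12 h N-, 6.26 at 12 h NR and 12.00 at 24 h NR.

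**Figure D3:**
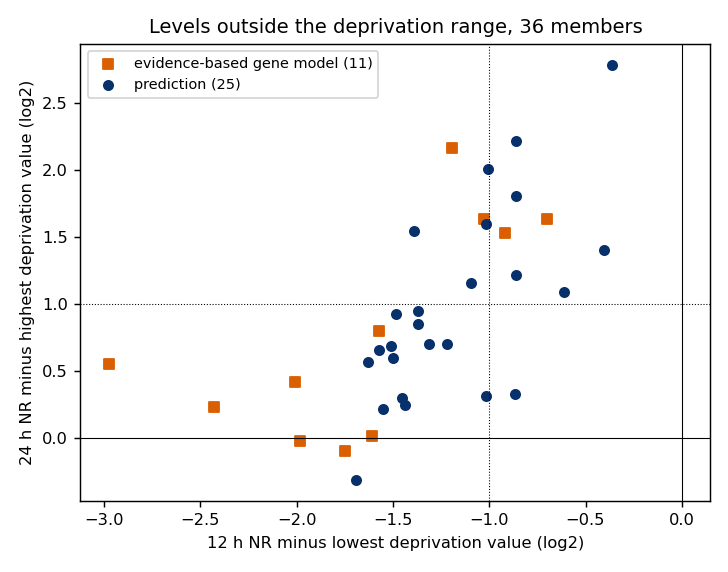
For each of the 36 members, the level at 12 h NR minus its lowest deprivation value (horizontal) and the level at 24 h NR minus its highest deprivation value (vertical), both as log2 differences, with squares for the 11 evidence-based models and circles for the 25 predictions. All points lie left of 0, 33 of 36 lie above 0, and 14 lie above the dotted line at 1.

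Resupply was also compared with deprivation at matched hours. At 6 h all 36 members were lower in NR, beside 59.0% of all called genes, with a median of -2.69, or -1.53 relative to a shift of -1.17, with 23 members and 730 called genes lower. At 12 h all 36 were lower, beside 62.8% of all called genes, with a median of -4.61, which is 24.3-fold. Relative to a shift of -1.45 this was -3.16, again with all 36 lower, beside 808 called genes. The other cluster 3 genes had medians of -1.51 and -2.83 at these hours, and near members -1.69 and -3.55. Of the other cluster 3 genes 80.3% were lower at 6 h and 96.3% at 12 h, and of near members 98.9% and 100%. At 24 h 32 members were higher in NR, beside 44.0% of all called genes, with a median of 1.51. Relative to the shift this was 0.96, with 18 members and 554 called genes higher. At 48 h 35 were higher, beside 47.9%, with a median of 1.98, or 1.25 relative to the shift, with 23 members and 542 called genes higher. Near members were closer to the members at these later hours, with medians of 1.83 and 1.73. Of near members 92.1% were higher at 24 h and 95.5% at 48 h, and of the other cluster 3 genes 67.7% and 66.4%.

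After the peak the members came down part of the way. Between 24 h and 48 h NR all 36 had lower values, with differences from -2.50 to -0.32 and a median of -0.94. Values were also lower in 1606 of the 2489 called genes, 767 of the 836 other cluster 3 genes and all 89 near members. The 2-fold limit was passed by 15 members, beside 20.0% of all called genes, 42.6% of the other cluster 3 genes and 51.7% of near members. Relative to the shift the median was -0.65 with 8 members and 278 called genes lower. Between 48 h and 72 h NR the median was -0.27, with 1 member lower, beside 11.4% of all called genes, and 0 higher, beside 5.46%. Relative to the shift the median was -0.13, again with 1 member lower, beside 200 called genes, and 0 higher, beside 165. At 72 h NR the members stood between -0.57 and 0.99 of their 6 h N- level, within the limits of the rule. Of the members 27 were above and 9 below, beside 1387 and 1102 of all called genes.

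**Figure D4:**
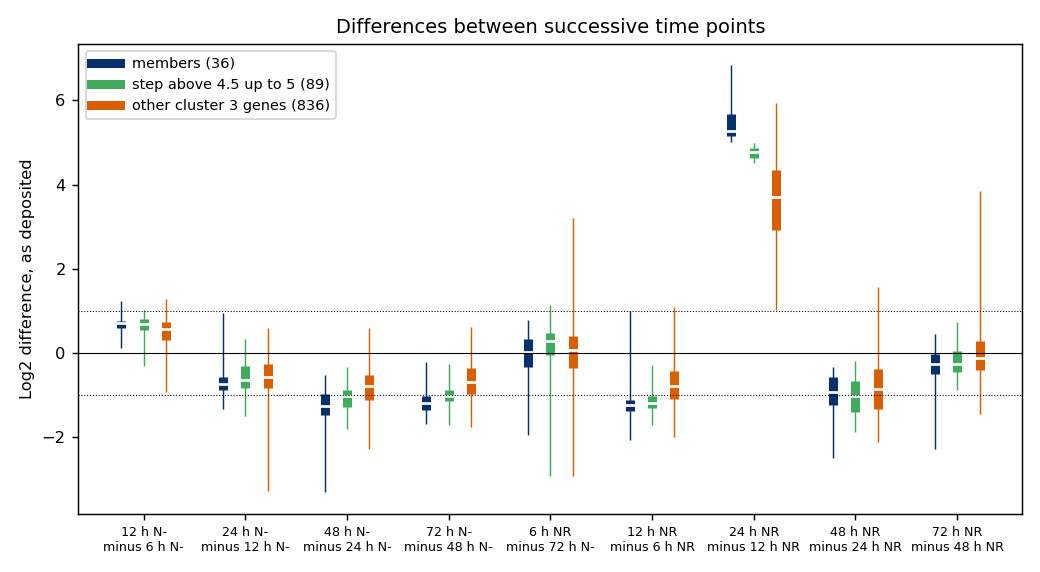
Log2 differences between successive time points, as deposited, for the 36 members, the 89 near members with steps above 4.5 up to 5, and all 836 other genes of cluster 3 (which include the near members). Thick bars run from the first to the third quartile over genes, thin lines from the lowest to the highest gene, and white marks are medians. Members lie lowest between 24 h and 48 h N- (median -1.26 against -1.03 and -0.78), and all 3 groups overlap in every interval except 24 h minus 12 h NR, where the step limits keep the first 2 apart.

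Profiles were alike across members, with exceptions. Over the 630 pairs of members, the Pearson correlation of the 10 values had a median of 0.97 and ran from 0.77 to 1.00, and with centred columns the median was 0.92. Near members were as alike (median 0.97), and pairs of the other cluster 3 genes had a median of 0.91, and with centred columns these medians were 0.92 and 0.63, so the contrast with the other cluster 3 genes is wider after centring. These correlations share the same 10 columns and the selection, and they are descriptions only. The 4 members least like the mean of the rest had correlations of 0.876 to 0.946, and the remaining 32 started at 0.954.

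The 4 departures had different shapes. The gene augustus_masked-nanno_613-abinit-gene-0.0 gave a short pulse. It was at 8.69 at 6 h N- and 6.62 at 72 h N-, then at 7.40, 6.26, 12.00, 10.41 and 8.12 at the 5 resupply hours in order. Its excess over the 6 h N- level at 24 h NR, 3.31, was the highest of all members, and it was the member that was more than 2-fold lower between 48 h and 72 h NR (-2.29).

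The genes augustus_masked-nanno_6523-abinit-gene-0.0 and augustus_masked-nanno_6523-abinit-gene-0.1 lie on the same contig and moved together. The first was at 8.58, 9.13, 9.80, 6.76 and 5.77 at the 5 deprivation hours in order. It was at 4.36, 5.37, 11.21, 8.71 and 8.21 at the 5 resupply hours. The second was at 9.59, 10.03, 10.98, 7.67 and 6.70 in deprivation and at 5.29, 6.09, 12.07, 9.69 and 9.38 after resupply. In deprivation both peaked at 24 h, where all other members were already below their 12 h N- level. They had the largest declines between 24 h and 48 h N- (-3.04 and -3.31), their lowest value at 6 h NR in place of 12 h NR, and the largest declines between 24 h and 48 h NR (-2.50 and -2.38). They were the 2 members that were above their 6 h NR level at 12 h NR, by 1.00 and 0.79.

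The fourth, maker-nanno_820-augustus-gene-0.27, had the smallest decline over deprivation. It was at 11.36, 11.98, 11.39, 10.55 and 10.34 at the 5 deprivation hours, with a difference of -1.03 between 72 h and 6 h N- and the smallest decline of all members between 48 h and 72 h N- (-0.22). It then stood at 8.38, 7.36, 12.53, 11.90 and 11.44 after resupply, 2.97 below its 72 h N- level at 12 h NR, the largest such difference of a member.

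**Figure D5:**
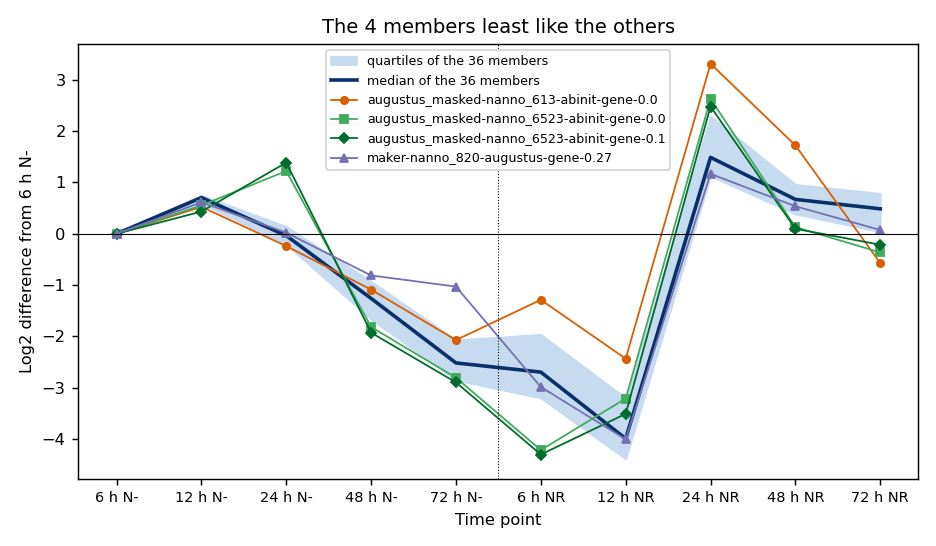
Log2 difference from the gene's own 6 h N- level (vertical) at the 10 time points, for the 4 members with the lowest correlation to the others, over the median (dark line) and quartiles (band) of all 36 members. The gene on contig 613 peaks at 3.31 and ends at -0.57, the 2 genes on contig 6523 have their highest deprivation value at 24 h N- and their lowest value of all at 6 h NR, and the gene on contig 820 is at -1.03 at 72 h N-, above all other members.

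Outside the members the genes most like their mean profile were snap_masked-nanno_5275-abinit-gene-0.1 and maker-nanno_350-snap-gene-0.17, both of cluster 3, with Pearson correlations of 0.998 and 0.997 over the 10 time points. The first had a level of 7.94 at 12 h NR and 12.49 at 24 h NR, a step of 4.55, and the second had 8.67 and 12.97, a step of 4.30. Both met the other conditions of the rule. In all 186 non-members had a correlation above 0.98 with the mean profile, and all 186 belong to cluster 3. The members thus shared the shape of their profile with many genes of the cluster that had smaller steps or another end level.

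The 36 members lie on 33 contigs, and 3 contigs (699, 4253 and 6523) hold 2 members each. The profiles within these pairs had Pearson correlations of 0.997, 0.999 and 0.998. Levels within a pair differed by a median of 1.39, 1.87 and 0.93 on the log2 scale. Whether these are separate transcripts or parts of 1 gene is not known. The contigs of the members hold 88 other called genes, of which 41 (46.6%) are in cluster 3, beside 34.1% of all called non-members. Another 24 are in cluster 1, 11 in cluster 2 and 12 in cluster 4, so neighbours on a contig did not all follow the member. Evidence-based models made up 11 of the 36 members (30.6%), 27.2% of the other cluster 3 genes and 34.8% of all called genes.

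Most members had high levels as deposited at 6 h N- for genes of their cluster. As above, these levels are not read as an order of transcripts. When cluster 3 was divided into 4 equal bins of 218 genes by the level at 6 h N-, the lowest bin (levels up to 7.43) held 0 members, the next 4, the third 8 and the highest (levels from 10.42) 24. Median steps were 3.06, 3.82, 4.06 and 4.34 in the same order. All genes with a step above 5, members or not, numbered 1, 10, 12 and 41, so high levels were not particular to the members. Across the 872 genes the step had a Pearson correlation of 0.39 with the level at 6 h N-. The correlation was 0.14 with the level at 12 h NR and 0.53 with the level at 24 h NR. The step is the 24 h NR level minus the 12 h NR level, so its correlations with these levels follow in part from its definition. A log transformation that shrinks low values would limit the steps of genes with few reads, and its part in these counts was not tested.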

How the data were processed

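Per the labels' protocols, reads trimmed by Trimmomatic 0.32 were mapped by STAR 2.3.0e, keeping those with a unique place in the CCMP1779 genome, and counted per gene by HTSeq 0.6.1. The authors called genes with DESeq2 and clustered them by k-means, per the labels' protocols. The 4 deposited tables hold the authors' values on a log2 scale, 1 per gene and time point. The scale was inferred from the values (1.46 to 19.5), and for the transformation, the scaling and the joining of libraries the steps are not given in the sources at hand, so depth is unknown. A row number of the authors' clustering input is also deposited.

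Differences, counts and correlations were computed in Python 3.11.15 (pandas 2.3.3, scipy 1.17.1, numpy 2.4.6). The rule was applied to the deposited values and tested on simulated profiles. No test was possible with 1 value per time point. The members, lists and comparisons were chosen with earlier results of these data known. Comparisons of 24 h NR with 6 h N-, of 12 h NR with 72 h N- and of 24 h with 12 h N- were added after the tables were seen. Named genes have the highest or lowest value of a described difference, at most 2 each way, or the profile nearest to the members' mean. Gene lists could not be applied, since identifiers have no names. Unique mapping undercounts near-identical genes.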

Additional observations from a re-analysis of the deposited data

Results flagged for a closer look

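The resupply level lay under the deprivation level at 12 h and over it at 24 h in 32 of the 36 members. Each difference was more than 2-fold. The same held for 23.4% of all called genes, 64.8% of the other cluster 3 genes and 92.1% of near members. It also held for all 28 genes outside the rule with steps above 5, so it is not particular to the members. The opposite directions at these 2 times drew attention. This contrast of times was not tested, and the rule chose the members for a steep step between 12 h and 24 h NR, so the turn follows in part from the selection. After centring of the columns 18 members showed the turn, beside 209 of the 2489 called genes and 190 of the 836 other cluster 3 genes. It was then seen in 51 of the 89 near members and 26 of the 28 genes outside the rule with steps above 5.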

How the results depend on the processing

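The number of members depends on the limits. From 36 it became 2 with columns centred before the rule was applied, 125 with a step limit of 4.5, 13 with 5.5, 17 with the other limits at 0.5 and 61 with them at 1.5. Over all 4 tables it remained 36. Centring takes the shift of 1.76 between 12 h and 24 h NR out of each step, and with the step limit lowered by that shift, an alternative chosen after seeing the data, 40 genes passed, 36 of them members. No median of the differences followed over these settings changed sign. That of 24 h minus 6 h N-, a difference the rule limits, went from -0.037 to 0.006 with centred columns. With centred columns the medians for 48 h minus 24 h N-, 72 h minus 48 h N- and NR minus N- at 24 h came inside the 2-fold limit, at -0.79, -0.86 and 0.96. With a size limit of 1.5 in place of 1, the medians of -1.26, -1.18 and -1.23 for 48 h minus 24 h N-, 72 h minus 48 h N- and 12 h minus 6 h NR were no longer past it. With a step limit of 4.5 the median of 24 h NR minus 12 h N- was 1.12 in place of 0.75. Counts of members past the size limit moved by over 1.5 times as follows. They went from 26 to 11 with centred columns and 7 with the limit at 1.5 for 48 h minus 24 h N-, from 28 to 12 and 3 for 72 h minus 48 h N-, from 15 to 8 and 5 for 48 h minus 24 h NR and from 32 to 18 and 18 for NR minus N- at 24 h. With centred columns they went from 7 to 2 for 24 h minus 12 h N- and from 31 to 18 for 24 h NR minus 6 h N-, and the members more than 2-fold below their deprivation range at 12 h NR from 27 to 16. They went from 36 to 23 for NR minus N- at 6 h and from 35 to 23 at 48 h with centred columns, and from 31 to 8 for 12 h minus 6 h NR with the limit at 1.5. Of the smaller counts, the 2 members higher at 12 h N- became 0 and the 4 lower at 6 h NR became 2 with the limit at 1.5. No paired analysis was possible because the tables hold 1 value per time point and no value per library, and for the same reason no replicate could be left out.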

Other observations

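The tables also give each gene's row number in the authors' clustering input of 2489 rows, whose order is not explained in the sources used here. The members' row numbers ran from 7 to 1199 with a median of 268.5, against a median of 828 for the other cluster 3 genes.

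The 28 genes with steps above 5 whose end level exceeded the 6 h N- level by more than 2-fold had the same median step as the members, 5.28, but a shallower trough. At 12 h NR 1 of the 28 was more than 2-fold below its lowest deprivation value, against 27 of the 36 members, and at 24 h NR 25 of the 28 exceeded their highest deprivation value by more than 2-fold, against 14 of 36. Since the end level that separates the 2 groups is part of the rule, this contrast is a description with no test. Of the 28, 14 are evidence-based models.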
